A study of Mus musculus with 2 samples.

Results

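In droplet sequencing most barcodes belong to droplets that took up no whole cell, and the few transcripts counted there come from RNA in the liquid, from pieces of cells or from errors in a barcode. Here they are called low barcodes: every barcode with 1 to 99 unique molecular identifiers (UMIs, tags that mark single captured molecules). There were 166292 of them among 166786 barcodes with a UMI in the WT host library, and 120748 among 120936 in the MARCH1-/- host library. Their UMIs were summed in each library and set against the sum over cells, that is over barcodes whose UMIs number 500 or more, come from 250 or more genes and are at most 10% mitochondrially encoded. Low barcodes held 1084884 UMIs in the WT host library (28.9% of all its UMIs) and 326569 in the MARCH1-/- host library (16.9%). The 352 cells of the former held 2571048 UMIs and the 156 cells of the latter 1575581.

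The study put donor CD4 T cells of wild-type mice, sensitized to house dust mite extract on day 0 and days 7 to 11, into C57BL/6 hosts (WT host) or MARCH1-/- hosts on day 14. MARCH1 is a ubiquitin ligase that removes MHC class II and CD86 from the surface of antigen-presenting cells. All hosts then received the extract, and at day 4 after challenge donor cells with little of the dye Cell Trace Violet, which is diluted at each division, were sorted from the lung. Each host group gave 1 library, how many mice went into it is not stated by the labels, and the donor cells carry MARCH1 in both groups. No difference below therefore has a replicate check, no test was run, and the 95% intervals cover counting error only. March1 had 0 UMIs in low barcodes and in cells of both libraries, so it does not check the labels.

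RNA outside cells in such a suspension comes from cells that broke during dissociation, sorting or loading, and it enters every droplet together with the capture beads. Short and abundant cytoplasmic messages usually dominate it, whereas long RNAs held in the nucleus and messages inside mitochondria stay with the cell body until that opens as well. The kit primes RNA with an oligo-dT stretch that pairs with the poly(A) tail, and such a primer can also pair with adenines encoded inside a transcript. A summed count cannot tell free RNA from cell fragments apart.

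The libraries differed in how UMIs were spread over low barcodes. Single-UMI barcodes numbered 78322 in the WT host library (47.1% of low barcodes) and 54505 in the MARCH1-/- host library (45.1%). Beyond them the WT host library dipped to 989 barcodes at 3 UMIs and rose again to 8064 at 11 UMIs, and 56069 barcodes held 10 to 99 UMIs. The MARCH1-/- host library had no such second peak: its counts fell from 16852 barcodes at 2 UMIs, and 1677 held 10 to 99 UMIs. At the upper limit of the rule, 14 barcodes with 90 to 99 UMIs stood against 7 with 100 to 109 in the WT host library, and 0 against 1 in the MARCH1-/- host library. Few barcodes lay near either the limit of 99 UMIs or the range of 100 to 499 UMIs, which held 69 and 6 barcodes.

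**Figure D1:**
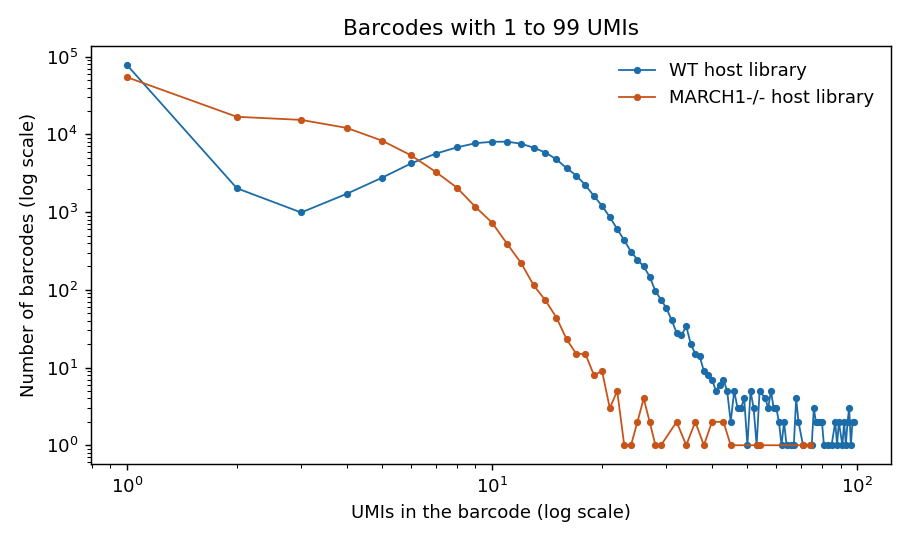
Number of barcodes (log scale) at each UMI total from 1 to 99 (log scale), 1 line per library. The WT host library has a second peak of 8064 barcodes at 11 UMIs, and the MARCH1-/- host library declines from 16852 barcodes at 2 UMIs.

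Some low barcodes were linked to cells. Of the 156 cell barcodes of the MARCH1-/- host library, 154 (98.7%) were low barcodes in the WT host library, with a median of 20 UMIs (3 to 98). Conversely 341 of 352 WT host cell barcodes (96.9%) were low barcodes in the MARCH1-/- host library, with a median of 6 UMIs (1 to 38). Only 7096 barcodes were low in both libraries, 4.27% of those of the WT host library and 5.88% of the other. The UMIs in these barcodes rose with those of the cell in the other library, with a Pearson r of 0.945 over the 154 and 0.882 over the 341 barcodes. No barcode was a cell in both. Together they held 3915 UMIs in the WT host library (0.361% of its low-barcode UMIs) and 2480 in the MARCH1-/- host library (0.759%). Gm42418 and AY036118, a pair of overlapping genes described below, took 0.230% and 0.645% of those UMIs, against 2.65% and 12.9% in the other low barcodes and 0.324% and 0.332% in the cells. Their part in single-gene results was small: no gene or list ratio moved beyond its interval when they were left out.

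A second link was by sequence. In the WT host library 291 low barcodes (2074 UMIs, 0.191% of low-barcode UMIs) differed by 1 base from a cell barcode of the same library, and in the MARCH1-/- host library 133 (894 UMIs, 0.274%). Barcodes 1 base from a cell of the other library alone numbered 2 in each library. One cell from each library is shown with 3 such neighbours, positions counted from 1 at the 5′ end of the 16 bases and capitals marking the base that differs.
WT host cell: ttgcatttcccgaata
neighbour C10T: ttgcatttcTcgaata
neighbour A13G: ttgcatttcccgGata
neighbour A16G: ttgcatttcccgaatG
MARCH1-/- host cell: ctagacatccggttct
neighbour C10T: ctagacatcTggttct
neighbour T13C: ctagacatccggCtct
neighbour G12A: ctagacatccgAttct

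The WT host cell held 16495 UMIs and its neighbours 96, 10 and 9; its own barcode held 18 UMIs in the other library, and the neighbours 0. The MARCH1-/- host cell held 8016 UMIs and its neighbours 43, 19 and 1, with 29 UMIs at its barcode in the WT host library. In both libraries every neighbour differed at a position from 10 to 16 and none from 1 to 9. The same held for all pairs of low barcodes 1 base apart, of which 206 in the WT host library differed at position 10 and 0 at position 9. Barcodes 1 base from a cell were not left out of these pairs.

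The mitochondrial share was part of the rule for cells and is given as a description. In the WT host library mitochondrially encoded genes took 0.743% of low-barcode UMIs and 2.45% of cell UMIs, and in the MARCH1-/- host library 1.02% and 2.66%. All 13 of these genes were lower in low barcodes in both libraries, with log2 ratios of the sum of -1.72 and -1.39; over all genes counted, 2.30% were over 2-fold lower in both. Within low barcodes the share was uneven: 4.66% of WT host UMIs in barcodes with 1 UMI came from these genes, against 0.444% at 2 to 9 UMIs and 0.437% at 10 to 99. The corresponding shares in the MARCH1-/- host library were 3.73%, 0.402% and 1.37%. Single-UMI barcodes thus held a higher mitochondrial share than cells did, and barcodes with 2 to 9 UMIs a lower one. Barcodes with over 10% mitochondrial UMIs were few between 10 and 49 UMIs (170 of 55987 and 19 of 1673). They were common between 100 and 499 UMIs, at 33 of 69 and 4 of 6.

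A pair of overlapping genes took a larger share of low barcodes than of cells. Gm42418 and AY036118 lie over each other on opposite strands of chromosome 17 (39846958 to 39848788 and 39847113 to 39848035, GRCm38). The place is known for sequence alike to ribosomal RNA. The genes were paired after their values were seen. The labels do not state how the counting used strand, so how reads were divided between them was not checked. Gm42418 had 25174 UMIs in WT host low barcodes and 7049 in cells, which is 23204 against 2742 counts per 1e6 UMIs (CPM). The MARCH1-/- host library gave 40827 and 4848 UMIs, or 125018 against 3077 CPM. AY036118 was at 3227 CPM against 501 in the WT host library and at 3212 against 241 in the MARCH1-/- host library. Together they took 2.64% of WT host low-barcode UMIs against 0.324% in cells, and 12.8% against 0.332% in the MARCH1-/- host library. Cells of both libraries were thus alike in this summed share, most of it from Gm42418, and low barcodes were not. AY036118 alone went the other way. Its log2 ratio of MARCH1-/- over WT host was -0.007 in low barcodes and -1.05 (-1.22 to -0.89) in cells. The share was highest at 2 to 9 UMIs (2.91% and 14.7%) and lowest in barcodes with 1 UMI (0.965% and 5.65%). Because so much of the MARCH1-/- host sum went to this pair, every other gene there is shifted down: leaving the pair out of the totals adds 0.19 to each log2 ratio of that library and 0.03 to those of the WT host library.

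Cytosolic ribosomal protein genes, the largest class, took 30.2% of low-barcode UMIs against 27.3% in cells of the WT host library. In the MARCH1-/- host library they took 20.3% against 22.0%. Their level was nearly flat across the bands of low barcodes in the WT host library, from 30.2% to 30.4%. In the MARCH1-/- host library it was 23.0% at 1 UMI, 19.7% at 2 to 9 UMIs and 21.1% at 10 to 99 UMIs. None of the 82 of 85 members with enough UMIs passed 2-fold in either library. Barcodes with at least 500 UMIs that exceeded the mitochondrial limit (73 and 26) were unlike low barcodes in this class, with 5.93% and 3.57%.

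**Figure D2:**
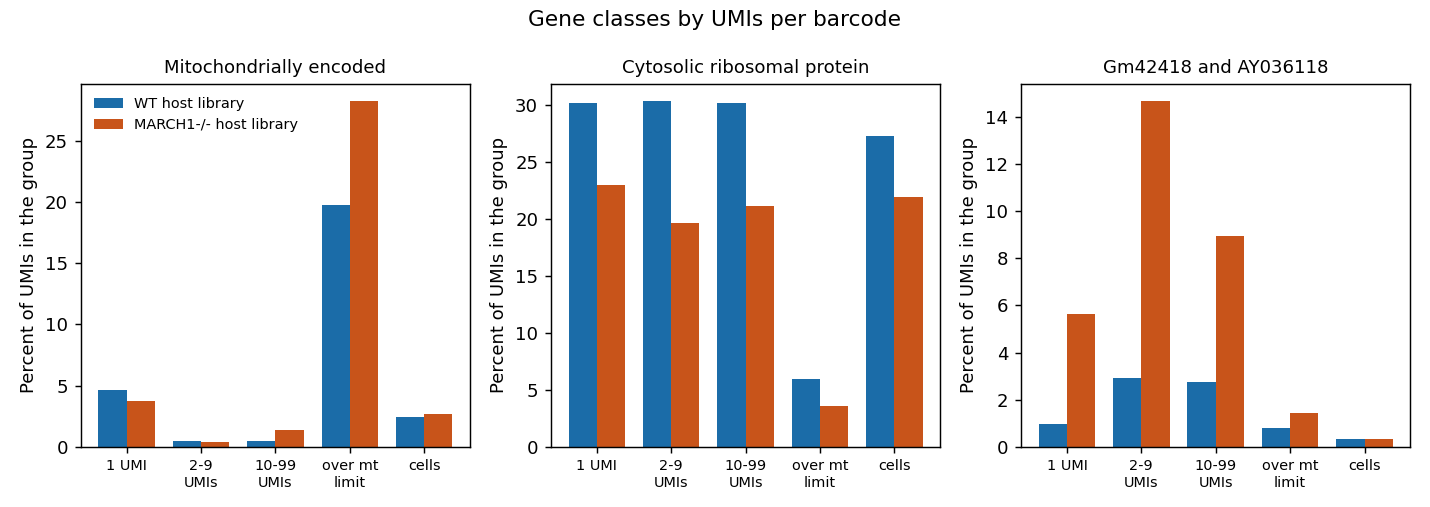
Percent of UMIs taken by 3 gene classes in barcodes of 1 UMI, 2 to 9 UMIs and 10 to 99 UMIs, in barcodes over the mitochondrial (mt) limit and in cells, for both libraries. Gm42418 and AY036118 reach 14.7% at 2 to 9 UMIs in the MARCH1-/- host library and stay near 0.33% in cells, while the mitochondrial share is 28.3% in barcodes over the limit.

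Across genes, low barcodes otherwise followed the cells of their own library. Of 4746 genes with at least 50 UMIs over low barcodes and cells in each library, 93.1% lay within 2-fold in the WT host library and 90.2% in the MARCH1-/- host library. Spearman's rho of the CPM across these genes was 0.909 and 0.877, a description over genes that share the same libraries. The median log2 ratio of low barcodes over cells was -0.18 and -0.25. Over 2-fold higher in low barcodes were 26 genes (0.548%) in the WT host library and 38 (0.801%) in the MARCH1-/- host library, and 17 (0.358%) in both. Over 2-fold lower were 302 (6.36%) and 429 (9.04%), and 109 (2.30%) in both. At this minimum of 50 UMIs the lower genes were the larger group in each library. Cells held more UMIs than low barcodes, so a gene could reach the minimum through cells alone. Uso1 did so in the MARCH1-/- host library, with 0 UMIs in low barcodes and 63 in cells. How far this set the order was not tested. TMM scaling gave 18 higher and 52 lower in both, and a minimum of 1 UMI turned the order, to 1135 higher and 260 lower.

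The sorted cells' own markers were present in low barcodes at close to the cells' level. The 12 CD4 T cell markers, which include the T cell receptor chains and the CD3 subunits of its signalling complex, summed to 4547 CPM in low barcodes and 4679 in cells of the WT host library. The MARCH1-/- host library gave 5169 and 6108 CPM, a log2 ratio of -0.24 (95% interval -0.32 to -0.17). Cd3d, a CD3 subunit, had log2 ratios of 0.16 and 0.14. Il7r, the receptor chain for interleukin 7, was the 1 member of 12 over 2-fold lower in both libraries, at -1.26 and -1.05, beside 2.30% of all genes counted. Cd4 itself was at 309.7 CPM in low barcodes and 483 in cells of the WT host library, and at 214 and 274 in the MARCH1-/- host library.

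Markers of other lung cells differed by list in low barcodes. Lists for NK cells (7 genes), neutrophils (11), mast cells and basophils (8) and platelets (7) had 0 UMIs in low barcodes of both libraries. In cells these lists held few as well. They had 4, 3, 1 and 2 UMIs in the WT host library and 3, 6, 0 and 0 in the other. Alveolar epithelium markers (11 genes) had 25 UMIs in WT host low barcodes and 23 in cells, and 3 and 9 in the MARCH1-/- host library. Sftpc, which encodes a surfactant protein of type II alveolar cells, accounted for 10 of the 25 UMIs against 1 UMI in cells. Macrophage and monocyte markers stood at 93.1 CPM in low barcodes against 97.6 in cells of the WT host library, and at 79.6 against 99.6 in the other. Ctss, a lysosomal protease that is not confined to these cells, gave 96 of the 101 WT host UMIs and 25 of the 26 MARCH1-/- host UMIs in low barcodes. Of the 12 markers 9, Csf1r, Adgre1, C1qa and Mrc1 included, had 0 in both libraries. Ccl17, a chemokine of dendritic cells, had 16 UMIs in WT host low barcodes and 0 in cells. It was 12.6-fold higher with 3 counts as the floor for the cells. The other library gave 3 UMIs and 1. B cell markers had 44 UMIs in low barcodes and 60 in cells of the WT host library, and 33 and 166 in the MARCH1-/- host library. The list's log2 ratios were 0.80 (0.20 to 1.38) and -0.06 (-0.65 to 0.49). Ighm, the IgM heavy chain, gave 26 and 24 of the low-barcode UMIs. It was the only member with enough UMIs, at log2 ratios of 0.22 and -0.45. Ebf1, a B cell transcription factor, had 17 UMIs against 2 and 8 against 1, whereas Cd79a, Ms4a1 and Pax5 had 0 in low barcodes. The endothelium list (11 genes) went in opposite directions, at 41.5 CPM in low barcodes against 68.8 in cells of the WT host library and 122.5 against 71.7 in the MARCH1-/- host library. Pecam1 gave 26 of its 45 WT host UMIs and 35 of its 40 MARCH1-/- host UMIs, and Cldn5, Kdr, Tie1, Cd93, Emcn and Sox17 had 0.

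Several of the genes with the largest ratios hold long runs of adenines. Of the 12 named genes higher in low barcodes (those whose interval lay farthest from 0 in the library where it lay nearest, leaving out symbols of Gm with digits, symbols ending in Rik and the gene classes), 7 have a transcript in GENCODE M21 with an unbroken run of 32 or more adenines, and 4 have it in a transcript other than a retained intron or similar noncoding model. Such a run is held by 22 of the 4746 genes counted (0.464%), but the limit of 32 was taken from the shortest run among these 7 genes. The runs were looked at after the ratios were seen, and these 7 genes, Sec61a1 aside, had under 50 cell UMIs in at least 1 library, so the share is a description. The sites are shown because each is a place where an oligo-dT primer could pair inside the transcript; 12 bases before the run (6 for Iqcb1, whose run lies near the start of that transcript) are in lower case, and capitals mark the first 18 adenines. They are read in the sense of the transcript from GRCm38.
Igf2bp2: gtgttctgtgacAAAAAAAAAAAAAAAAAA
Nfia: catatgtgcactAAAAAAAAAAAAAAAAAA
Bmt2: accatgtctcagAAAAAAAAAAAAAAAAAA
Slx1b: aaaaaaaaaaccAAAAAAAAAAAAAAAAAA
Trim2: taaaagtaaaccAAAAAAAAAAAAAAAAAA
Iqcb1: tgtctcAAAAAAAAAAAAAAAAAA

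The runs of Igf2bp2 (37 bases, chr16:22059037-22059073, minus strand, exon 16), Nfia (38 bases, chr4:98114266-98114303, plus strand, exon 11), Bmt2 (40 bases, chr6:13625895-13625934, minus strand, exon 5) and Slx1b (45 bases, chr7:126690462-126690506, minus strand, exon 6) lie in the 3' UTR of a coding transcript. Those of Trim2 (41 bases, chr3:84189761-84189801, minus strand, exon 6) and Iqcb1 (41 bases, chr16:36846995-36847035, plus strand, exon 1) lie in exons of transcripts annotated as retained introns, as does the run of 32 bases in Sec61a1. No header or label names the gene annotation behind the counts, and whether reads at these places were counted was not tested.

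Sec61a1 and Bmt2 aside, these genes were almost absent from cells. Iqcb1, a protein of the cilium base, had 366 UMIs in 365 WT host low barcodes and 6 UMIs in 6 cells, which is 337 against 2.33 CPM and a log2 ratio of 7.18 (6.04 to 8.63). Its MARCH1-/- host values were 209 UMIs in 207 barcodes against 5 UMIs in 4 cells, a log2 ratio of 7.66 (6.41 to 9.29). Trim2, a ubiquitin ligase studied in neurons, had 311 against 3 UMIs and 151 against 5. Both genes appeared about 1 UMI to a barcode. Low barcodes held a mean of 6.52 and 2.70 UMIs in the WT host and MARCH1-/- host libraries, so this spread does not set these genes apart. Neither gene had a UMI in the barcodes over the mitochondrial limit. Igf2bp2, an RNA-binding protein, had 172 UMIs in low barcodes and 3 in cells of the WT host library. In the MARCH1-/- host library it had 107 against 0, 172-fold higher with 3 counts as the floor. The lower limit of its log2 interval there was 7.10. Nfia, a transcription factor, had 259 against 9 and 127 against 2 UMIs. Slx1b, a subunit of a structure-specific nuclease, was at 121 against 4.67 CPM and 263 against 5.08 CPM. Sec61a1, the channel of the endoplasmic reticulum translocon, was also seen in cells: 359 CPM in low barcodes against 54.1 in the WT host library and 818 against 53.9 in the MARCH1-/- host library. Bmt2, a methyltransferase, was at 119 against 20.2 and 220 against 17.1 CPM.

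The files hold 34 genes with a run of at least 35 adenines, and their summed UMIs, with no minimum per gene, were 2689 in low barcodes and 1683 in cells of the WT host library, a log2 ratio of 1.92 (1.83 to 2.01). The MARCH1-/- host library gave 1480 and 1146 UMIs, a log2 ratio of 2.64 (2.53 to 2.75). Genes whose longest run was 20 to 34 adenines had sums below the cells', at -0.24 and -0.20. Genes with runs of at least 35 thymines gave -0.57 and -0.47 over 37 genes. Of the 34 genes, 16 had enough UMIs to be counted, and 8 of them were among the 17 higher in both libraries. Each of those 8 had under 50 cell UMIs in at least 1 library, so the share is not read against the 0.358% of all genes. They also made up most of the sum: 1664 of the 2689 low-barcode UMIs and 92 of the 1683 cell UMIs in the WT host library, and 931 of 1480 and 48 of 1146 in the other. The sums of the other 26 genes had log2 ratios of 0.61 (0.50 to 0.72) and 1.27 (1.12 to 1.42). The remaining 8 were not higher in both, and Kcnq1ot1, with 41 adenines, was lower at -2.30 and -1.20. With runs counted only in transcripts other than retained introns and similar noncoding models, 23 genes remained and the sums were at 2.70 and 3.19.

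**Figure D3:**
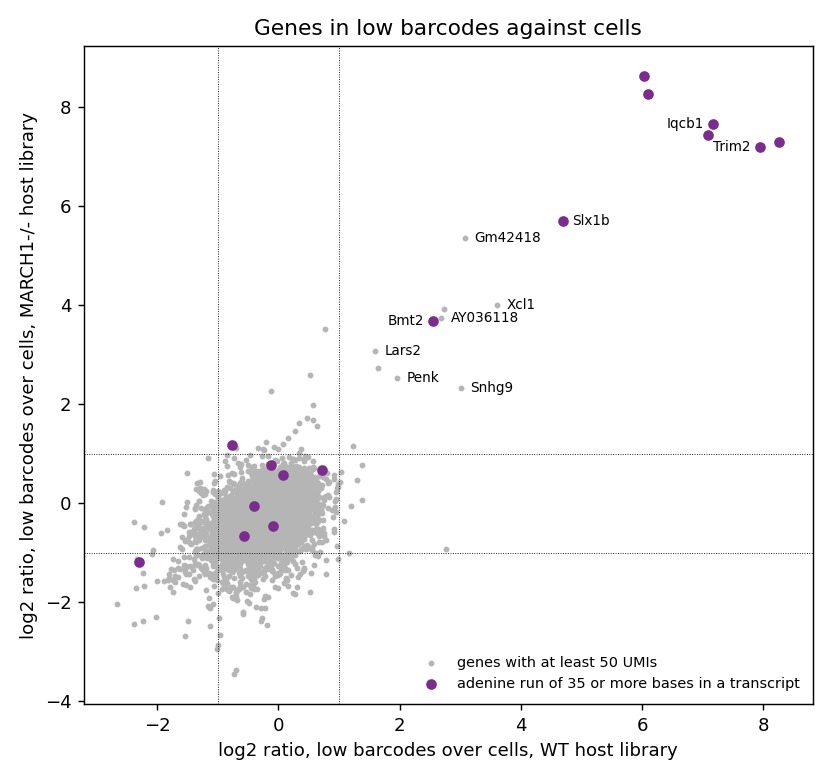
Log2 ratio of low barcodes over cells for 4746 genes (points) in the WT host library (horizontal axis) and the MARCH1-/- host library (vertical axis), with dotted lines at 2-fold; a gene at 0 UMIs on one side is placed at a floor of 3 counts. Of the 16 genes with an adenine run of at least 35 bases (purple), 8 lie at the upper right, above 2-fold in both libraries.

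**Figure D4:**
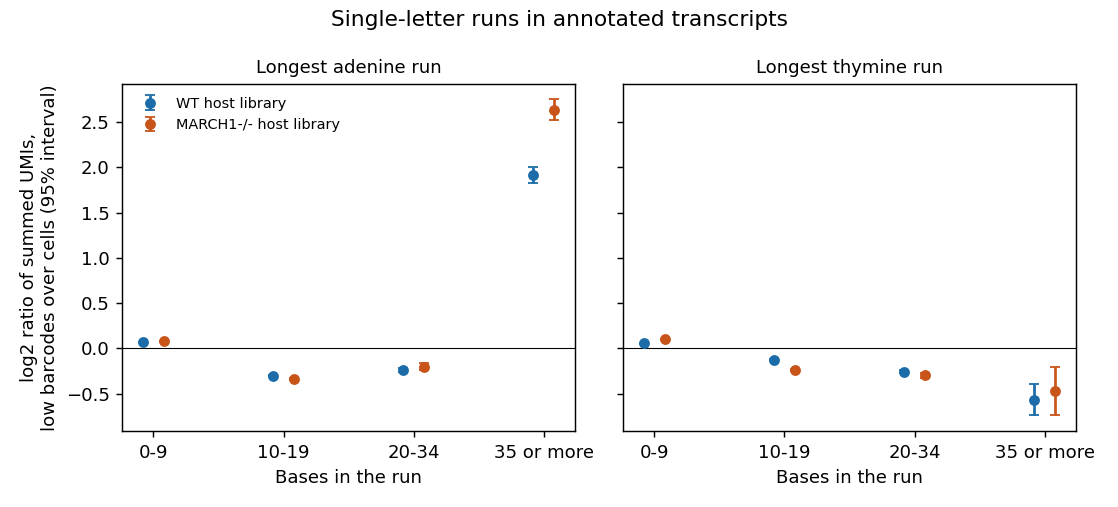
Log2 ratio of summed UMIs, low barcodes over cells, for genes grouped by their longest run of adenines (left) or thymines (right) in annotated transcripts, with 95% counting intervals. Only the group with at least 35 adenines is above 1, at 1.92 in the WT host library and 2.64 in the MARCH1-/- host library.

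The other named genes that were higher were Xcl1, AY036118, Penk, Snhg9 and Lars2, none with an adenine run over 11 bases. Xcl1, a chemokine for cross-presenting dendritic cells, had 139 UMIs in 130 low barcodes and 27 UMIs in 7 cells of the WT host library, a log2 ratio of 3.61 (3.01 to 4.26). Its MARCH1-/- host values were 83 UMIs in 81 barcodes and 25 in 3 cells, a ratio of 4.00 (3.34 to 4.71). Penk, the precursor of enkephalin peptides, was at 141 against 36.2 CPM and 184 against 31.7 CPM, with its cell UMIs in 12 and 11 cells. Because so few cells held these messages, the number of cells limits the ratio more than the interval shows. Snhg9, a short host transcript of small nucleolar RNAs, had log2 ratios of 3.01 and 2.32, and Lars2, the mitochondrial leucyl-tRNA synthetase, 1.60 and 3.08. Outside the rule for named genes, the 17 also held Cd200, an immunoglobulin-family surface protein, at 1.23 and 1.16, and 2 long noncoding RNAs with runs of 40 and 43 adenines (Gm10062 and 5830416I19Rik).

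Cytokine and chemokine genes spread in both directions. Of 29 list members, 17 had enough UMIs. Xcl1 and Lta were over 2-fold higher in both libraries. Xcl1 had only 27 cell UMIs in the WT host library and 25 in the other, so it reached the minimum through its low-barcode UMIs. The share of higher genes in this list is therefore not read against the 0.358% of all genes counted. Areg was over 2-fold lower in both libraries, beside 2.30% of all genes counted. Lta, which encodes lymphotoxin alpha, was at 113 against 36.2 CPM in the WT host library and 227 against 34.3 in the MARCH1-/- host library. Ccl1, a ligand of CCR8, was at 569 against 333 CPM (log2 0.77) in the WT host library and 159 against 14.0 CPM (log2 3.51) in the MARCH1-/- host library. Ccl1 had 22 cell UMIs in the latter, so it reached the minimum there through its 52 low-barcode UMIs. Ifng had log2 ratios of 0.63 and 1.55, Il17a 0.27 and 1.45, and Ccl5 -0.12 and 2.27. Of the type 2 cytokines, Il13 was at -1.12 and -0.95. Il5 was at -1.04 and 0.57, the latter (-0.78 to 1.76) from 8 low-barcode and 26 cell UMIs, under the minimum. Il4 was at 0.36 and -0.96, the latter from 12 UMIs. Areg, an epidermal growth factor receptor ligand, had 138 UMIs in low barcodes against 951 in cells and 49 against 617, with log2 ratios of -1.54 and -1.38. The summed list was at -0.20 and 0.26, and the median of its counted members at -0.11 and 0.28, beside -0.18 and -0.25 for all genes.

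A few cytokine messages were found mainly in low barcodes. Il9, a cytokine of type 2 responses, had 50 UMIs in 44 low barcodes of the WT host library and 1 UMI in its 352 cells, 118-fold higher (20.3 to 4773 by the counting interval). The MARCH1-/- host library held 0 Il9 UMIs in low barcodes and in cells, and the barcodes over the mitochondrial limit held 0 in both libraries. Csf2, the growth factor GM-CSF, had 28 UMIs against 6 in cells and 12 against 1, with log2 ratios of 3.47 and 5.86. Both lay under the minimum of 50 UMIs in each library and are not among the 17.

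**Figure D5:**
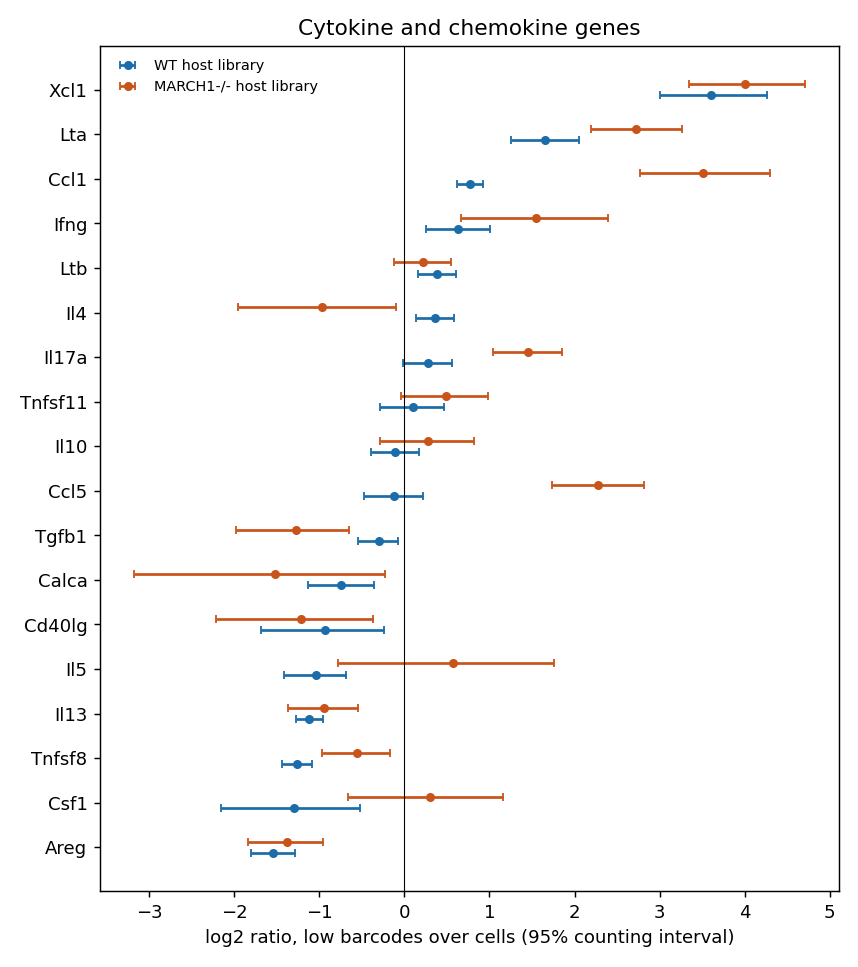
Log2 ratio of low barcodes over cells for cytokine and chemokine genes with at least 30 UMIs over low barcodes and cells in each library, with 95% counting intervals. Xcl1, at 3.61 and 4.00, and Areg, at -1.54 and -1.38, are over 2-fold from 0 in both libraries, and Ccl1 and Ccl5 differ most between the libraries.

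Genes lower in low barcodes included messages of long genes and nuclear RNAs. Xist, the noncoding RNA that coats the inactive X chromosome, was at 293 CPM in low barcodes and 804 in cells of the WT host library, and at 325 and 783 in the MARCH1-/- host library. Its log2 ratios were -1.46 (-1.63 to -1.29) and -1.27 (-1.57 to -0.98). Malat1, an abundant RNA of nuclear speckles, was at -1.06 and -0.64, and Kcnq1ot1, Mir155hg and Gm26740 of the same list were lower in both libraries. Of the 9 counted members of this list of nuclear and long noncoding RNAs, 4 were over 2-fold lower in both, beside 2.30% of all genes. Another 2, Gm42418 and AY036118, were over 2-fold higher in both, and with them the summed list was at 0.57 and 2.99. Gm26917 was at -0.54 and -0.11. Neat1, the scaffold of nuclear paraspeckles, had intervals that included 0 in both. Barcodes over the mitochondrial limit held more Malat1 than low barcodes or cells, at 39781 and 39415 CPM, and more Xist, at 4104 and 4635 CPM.

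The named coding genes among the lower ones had varied roles. Furin, a protease that processes secreted proteins, was at 232 against 758 CPM in the WT host library and 76.6 against 212 in the MARCH1-/- host library. Atp2b1, a plasma membrane calcium pump, was at 155 against 365 and 202 against 531 CPM. Rrbp1, a ribosome receptor of the rough endoplasmic reticulum, had log2 ratios of -1.67 and -1.48. Elmo1, which helps activate the GTPase Rac, was at -1.42 and -1.29, and Bptf, a chromatin remodeller, at -1.02 and -1.38. Dusp16, a MAP kinase phosphatase, was at -1.55 and -2.68, the latter from 2 low-barcode UMIs (-5.76 to -0.77). Nsa2, Dnajc1 and Rab5a lay between -1.54 and -1.04. Gnai2, an inhibitory G protein subunit, was named for its narrow interval and did not pass 2-fold, at -0.85 and -0.92.

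Gene length moved with the ratio. The median genomic span was 64.4 kb for the 109 genes lower in both libraries, 6.32 kb for the 17 higher in both and 22.6 kb for all genes counted. Over 5 equal groups of genes by span, the median log2 ratio in the WT host library went from 0.13 in the shortest to -0.55 in the longest, and in the MARCH1-/- host library from -0.13 to -0.48. Of the 17 genes higher in both libraries, 9 fell in the shortest group and 4 in the longest. Of the 109 lower in both, 17 and 57 did. Spearman's rho between span and ratio was -0.47 and -0.25 across genes, and between transcript length and ratio -0.49 and -0.26. Nuclear-encoded genes of oxidative phosphorylation, mostly short, summed to 0.31 and 0.04 on the log2 scale.

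Lists of T cell state are set beside the medians of all genes, -0.18 and -0.25. The inhibitory receptor and exhaustion list had a summed log2 ratio of -0.45 and -0.32. Of its 13 counted members 1, Havcr2 (TIM-3), was over 2-fold lower in both libraries, beside 2.30% of all genes. Havcr2 was at -1.08 and -1.27, the latter from 6 low-barcode UMIs (-2.77 to -0.08). Pdcd1, which encodes PD-1, had -0.33 and -0.38, and Ctla4 0.10 and -0.08. Tox, a transcription factor of exhausted T cells, was at -1.45 and -0.82. The Th2 and Treg identity list summed to -0.41 and -0.31 over 15 genes, and Pparg, a nuclear receptor of Th2 cells, was the 1 of 13 counted members over 2-fold lower in both at -1.18 and -1.02. Gata3, the main Th2 transcription factor, was at -1.54 and -0.76, and Foxp3, that of regulatory T cells, at 0.49 and -0.37 with intervals that included 0. Cell cycle genes (24) summed to 0.00 and -0.20, and glycolysis genes (13) to -0.09 and -0.25.

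Between hosts, low barcodes were set against each other for 4709 genes with at least 30 UMIs over the low barcodes of both libraries. In the MARCH1-/- host library 334 (7.09%) were over 2-fold higher and 308 (6.54%) over 2-fold lower, and the median log2 ratio of MARCH1-/- over WT host was 0.17. The split depended on scaling: 207 higher and 427 lower with TMM, 201 and 436 with totals outside mitochondrial and ribosomal protein genes, and 619 and 203 with totals outside Gm42418 and AY036118. The cells of the same libraries gave a median of 0.25 for these genes. Across genes the host ratios of low barcodes and of cells had a Pearson r of 0.631 and a Spearman rho of 0.585, and 73.7% had the same sign; both come from the same pair of libraries, so this is no replicate.

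Several host differences in low barcodes were also seen in cells. Gstp1, a glutathione transferase, had a log2 ratio of MARCH1-/- over WT host of -3.89 in low barcodes beside -3.43 in cells, and Cdk2ap1, a regulator of the kinase CDK2, 4.35 beside 4.03. Rnaset2a, a ribonuclease, had 3.54 beside 3.23, and Tuba1b, an alpha tubulin, 1.73 beside 2.13. For these genes the difference between hosts was thus seen in either set of barcodes. Gene families with near-identical copies, such as ribonucleases and tubulins, are uncertain where the counting could split reads.

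Others differed in low barcodes much more than in cells. Rabgap1, a regulator of Rab GTPases whose transcripts hold a run of 32 adenines, had a host log2 ratio of 2.78 (2.12 to 3.47) in low barcodes and 0.71 (0.10 to 1.31) in cells. Pecam1, an adhesion molecule of endothelium and leukocytes with a run of 43, had 2.16 (1.39 to 2.95) and 0.22 (-0.23 to 0.66). Olfr1369-ps1, an olfactory receptor pseudogene, had 10 and 32 UMIs in low barcodes, a ratio of 3.41, while cells had 16 and 3 UMIs. Tmem109 and BC004004 had 2.20 and 2.27 in low barcodes, and 0.77 and 0.62 in cells. Whether the difference between barcodes and cells differed by host was not tested.

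Cytokine and chemokine messages went both ways between hosts. Of 23 list members counted in low barcodes, 9 were over 2-fold lower in the MARCH1-/- host library and 2 over 2-fold higher. Over all genes the shares were 6.54% and 7.09%. The minimum of 30 UMIs was over both libraries together, and WT host low barcodes held more UMIs. Members such as Il4, Il5 and Ccl3 thus reached it through the WT host library alone. The share of lower genes in this list is therefore not read against that of all genes. Il4 had 257 UMIs in WT host and 12 in MARCH1-/- host low barcodes, or 237 against 36.7 CPM, a log2 ratio of -2.69 (-3.66 to -1.86); cells had -1.37. Il13 was at -1.08 in low barcodes and -1.25 in cells, and Il5 at -1.54 and -3.15. Ccl3, a chemokine of activated lymphocytes, had 88 and 1 UMIs in low barcodes, and Mt1, a metallothionein, 327 and 16. Ifng was at -0.62 in low barcodes, with an interval from -1.39 to 0.08. Csf1, a growth factor of macrophages, was at 1.54 (0.39 to 2.67), with -0.05 in cells. Ccl5 was at 1.01 (0.52 to 1.49) beside -1.38 in cells, and Il17a at 0.82 (0.42 to 1.22) beside -0.35. Xcl1 was at 0.99 and Lta at 0.999, just under 2-fold. Fam177a had 111 UMIs and 1, and Usp50, a ubiquitin protease relative, 48 and 0.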

How the data were processed

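The authors deposited raw counts of UMIs per gene and barcode for 32285 genes and all barcodes, made with the 10x 3' kit (v3.1) per the labels' protocols. Cell Ranger 3.1.0 and mm10 stand in the submitters' processing notes, version 4 in the file headers. Other deposited columns, gene and barcode names, served as names. Here UMIs were summed over low barcodes and over cells of each library and scaled to 1e6 UMIs of the same sum (CPM). Ratios carry exact conditional binomial 95% intervals; a gene at 0 on one side is placed at 3 counts per sum. Called means past 2-fold. Doublets were not removed. Gene spans, transcripts and adenine runs came from GENCODE M21 (GRCm38), matched by gene ID for all 4746 genes counted. Named genes were list members with most UMIs, the 12 higher and 12 lower whose interval lay farthest from 0 in the library where it lay nearest (gene classes, Gm with digits and Rik symbols left out), and 8 each way between hosts; not every one is reported here. The members and lists were chosen with earlier results of these data known. The sums and intervals used Python 3.11.15 with scipy 1.17.1 and pandas 2.3.3, the figures matplotlib 3.10.9, and TMM scaling edgeR 4.0.16 in R 4.3.3; the scripts were tested on simulated data.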

Additional observations from a re-analysis of the deposited data

Results flagged for a closer look

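Each gene or list here had log2 ratios of low barcodes over cells in opposite directions in the 2 libraries, with both counting intervals clear of 0; the difference between the libraries was not tested. Values are given for the WT host library first. Cytosolic ribosomal protein genes were at 0.15 and -0.11, and Rpl41, a member, at 0.25 and -0.16. The actin cytoskeleton list was at 0.062 and -0.14, and its member Tmsb4x, an actin-binding peptide, at 0.091 and -0.13. Of factors that work with ribosomes, Rack1 was at 0.23 and -0.27 and Npm1 at 0.14 and -0.25. T cell receptor segments were at 0.25 and -0.22, with Trbc2, a constant region of the beta chain, at 0.66 and -0.32. Hist1h1e, a linker histone, was at 0.28 and -0.28. With totals that leave out Gm42418 and AY036118, ribosomal proteins moved to 0.18 and 0.08, the actin list to 0.10 and 0.06 and Tmsb4x to 0.12 and 0.07, the same direction in both. On that scale the MARCH1-/- host intervals of Rpl41, Rack1, Npm1, Trbc2, Hist1h1e, Il4 and the T cell receptor segments included 0.

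Cytokine and chemokine genes were at -0.20 and 0.26, and their member Il4 at 0.36 and -0.96. The endothelium list was at -0.73 and 0.77, and Pecam1, which gave most of its UMIs, at -0.77 and 1.17. With the same totals the cytokine list was at -0.17 and 0.45 and the endothelium list at -0.70 and 0.97, so their directions stayed opposite. The endothelium values rest on 45 and 40 low-barcode UMIs, and Pecam1 is also expressed by leukocytes and holds a long run of adenines.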

How the results depend on the processing

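Values were recomputed under 12 planned settings and 2 chosen after seeing the data (barcodes of 2 to 99 UMIs, and totals outside Gm42418 and AY036118). The minimums of 20 UMIs and 1 UMI were applied only to the gene counts of low barcodes against cells. Settings on cells were not applied to host ratios. The 17 genes higher in both libraries became 29 with a minimum of 20 UMIs and 1135 with a minimum of 1 UMI. The 109 lower genes became 196 and 260 with those minimums, 23 with barcodes of 10 to 99 UMIs only, 264 with each cell weighted equally, 52 with TMM scaling and 72 with totals outside Gm42418 and AY036118. Between hosts, the 334 higher genes became 1053 with barcodes of 10 to 99 UMIs, 201 with totals outside mitochondrial and ribosomal protein genes, 207 with TMM and 619 with totals outside the pair. The 308 lower genes became 149 with barcodes of 1 to 9 UMIs, 203 with totals outside the pair, 427 with TMM and 436 with totals outside mitochondrial and ribosomal protein genes. TMM adds 0.17 to each log2 ratio of low barcodes over cells in the WT host library and 0.25 in the other, and -0.18 to host ratios; totals outside the pair add 0.16 to host ratios and those outside mitochondrial and ribosomal protein genes -0.19.

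The mitochondrial ratio of the WT host library was -0.65 with 1 to 9 UMIs, -2.49 with 10 to 99, -1.76 with 1 to 49, -1.99 with no mitochondrial limit on cells, -1.85 with equal cells, -1.55 with TMM, -2.48 with 2 to 99 UMIs and -1.68 outside the pair. That of the MARCH1-/- host library was -0.95 with 10 to 99 UMIs, -1.62 with no limit, -1.45 outside mitochondrial and ribosomal protein genes, -1.14 with TMM, -2.49 with 2 to 99 UMIs and -1.20 outside the pair. CD4 T cell markers were at -0.22 with equal cells and 0.13 with TMM in the WT host library. In the MARCH1-/- host library they were at -0.75 with 10 to 99 UMIs, -0.44 with equal cells and -0.048 outside the pair, and at 0.011, the other direction, with TMM.

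Other lists whose interval had excluded 0 changed direction in the MARCH1-/- host library: cell cycle to 0.038 with 10 to 99 UMIs, 0.39 with equal cells and 0.050 with TMM; cytokines to -0.013 with equal cells; secretory pathway to 0.0029 with equal cells, 0.14 with TMM and 0.080 outside the pair; ribosomal proteins to 0.14 with TMM and 0.082 outside the pair; actin to 0.11 and 0.056 likewise; and, with TMM, T cell receptor segments to 0.033, translation factors to 0.052 and immediate early genes to 0.023. In the WT host library B cell markers went to -0.20 with 1 to 9 UMIs, glycolysis to 0.11 with equal cells and 0.083 with TMM, and immediate early genes to 0.059 with TMM. Leaving aside the mitochondrial and CD4 T cell lists, 240 recomputed list, gene and host values changed sign, 57 of them with TMM. Of named single genes past 2-fold, none did under the settings that left UMIs on both sides. The causes were not tested, beyond the shifts that the totals make by construction. No ratio moved beyond its interval without barcodes one base from a cell or barcodes that are cells in the other library, nor with cells of at least 1000 UMIs. No paired analysis was possible because each group has 1 library.

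Intervals treat UMIs as independent draws. MARCH1-/- host low barcodes held 326569 UMIs, so genes at few UMIs there, such as Il4 with 12, are imprecise.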
